A study of Mus musculus with 6 samples.

Results

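Aquaporins are membrane channels for water, and some of them also carry glycerol. Levels of 8 aquaporin transcripts, Aqp1, Aqp3, Aqp4, Aqp5, Aqp7, Aqp8, Aqp9 and Aqp11, were examined in mouse skin. They were taken by gene symbol from a table of 23951 genes that holds 12 aquaporin genes in all. All 8 were found, and all 8 passed the filter on low values, set at 0.1 FPKM on average, as did 17021 genes of the table. RNA sequencing was performed on whole skin from 3 JunBΔep mice (genotype label JunB dep) and 3 control littermates (JunB +/+) of the C57Bl/6 strain, with an age label of 6 to 7 months. In JunBΔep mice, JunB, a subunit of the AP-1 transcription factor, is deleted by K5-Cre in keratin 5-expressing cells, mainly the basal keratinocytes of the epidermis and hair follicle. The cells that descend from them carry the deletion too, other cells of the skin keep the gene, and the labels name no treatment for either group. The study describes the JunBΔep skin as lesional. The replicate numbers 0, 1 and 2 of the labels name the mice and do not order them, and 3 values given for a group are those of replicates 0, 1 and 2 in turn. All values come from 1 skin sample per mouse.

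Aquaporins assemble as tetramers in which each subunit forms its own pore. Aqp1, Aqp4, Aqp5 and Aqp8 are water channels, Aqp3, Aqp7 and Aqp9 are aquaglyceroporins that carry glycerol as well, and Aqp11 is a distant family member found in intracellular membranes. In skin, Aqp3 is the main aquaporin of the epidermis, where it brings glycerol and water into keratinocytes and supports hydration of the stratum corneum. Aqp1 is known from the endothelium of blood vessels and from red cells, Aqp4 from fast skeletal muscle fibres, Aqp5 from the secretory cells of sweat and salivary glands, Aqp7 from fat cells, which release glycerol through it, and Aqp9 from hepatocytes and leukocytes.

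The deleted gene encodes a DNA-binding protein, so the bases before the transcription start of Aqp3 and Aqp9, which had their highest level in the same JunBΔep mouse, are shown. RefSeq start windows (GRCm38.p6) were available for 7 of the 8 aquaporins, and the 250 bases before each start were searched for the AP-1 consensus TGANTCA, which reads the same on both strands. It was present in 1 of 9 windows of these genes, that of the inner start of Aqp9, and in 6.75% of all 32851 windows. In that window the match begins 24 bases before the start and is written in capitals. A match is a description of the sequence, not of binding. The Aqp3 window lies at chr4:41045217-41045466 and the window of the inner Aqp9 start at chr9:71010441-71010690 of mm9, both on the minus strand. Each was found once and without a change, and neither overlaps an annotated exon. The window of the outer Aqp9 start, at chr9:71011097-71011346, holds no match, overlaps an annotated Aqp9 exon and is not shown.
Aqp3: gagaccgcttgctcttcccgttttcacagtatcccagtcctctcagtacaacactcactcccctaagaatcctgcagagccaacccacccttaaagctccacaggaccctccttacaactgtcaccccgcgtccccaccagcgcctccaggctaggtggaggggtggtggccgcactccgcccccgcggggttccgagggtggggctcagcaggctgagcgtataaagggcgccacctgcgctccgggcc
Aqp9: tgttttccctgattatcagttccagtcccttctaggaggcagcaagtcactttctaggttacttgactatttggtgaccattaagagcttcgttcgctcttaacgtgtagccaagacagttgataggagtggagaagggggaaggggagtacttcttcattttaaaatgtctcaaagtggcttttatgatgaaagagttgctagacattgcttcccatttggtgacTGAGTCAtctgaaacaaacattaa

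The values are FPKM (mapped fragments scaled to transcript length and to library size), as deposited, so levels can be set side by side between genes. They sum to 481078 to 630363 FPKM per mouse, and since read numbers are unknown, no counting error is given. JunBΔep replicate 0 stood apart from the other 5 mice. Junb itself was at 129.6 FPKM there, while controls spanned 56.9 to 72.4 FPKM and the other JunBΔep mice had 42.8 and 28.0 FPKM (log2 fold change -0.21, adjusted p = 0.901, and -0.84, adjusted p = 0.359, without JunBΔep replicate 0, both from limma). Cells of the skin in which Junb is not deleted add to this level. The neutrophil transcript S100a8 was at 24456 FPKM in this library and at most 744 FPKM in the other mice. Whether such cells or a wrong label account for its Junb level was not tested. JunBΔep replicate 0 also held Krt13 and Krt4, keratins of mucosal epithelium, at 1990 and 1356 FPKM, where no other mouse exceeded 0.937 FPKM. Crnn, a further mucosal marker, was at 10.998 FPKM there but at 73.9 FPKM in control replicate 2 and 80.4 FPKM in JunBΔep replicate 1. Krt14 is listed at 0 in JunBΔep replicate 0 beside 3725 FPKM of its partner Krt5, and such a 0 can be a failed estimate. Control replicate 0 held 823 FPKM of the hepatocyte transcript Alb, which stayed at or below 18.8 FPKM elsewhere. The comparison of each aquaporin is therefore given with and without JunBΔep replicate 0, and the hepatocyte level is given where it touches a gene.

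In control skin, Aqp1 and Aqp3 were the most abundant aquaporins, at 86.4 ± 18.6 FPKM and 55.9 ± 17.8 FPKM (SD, n = 3). Their ranges met, since the highest Aqp3 value, 76.5 FPKM, exceeded the lowest Aqp1 value, 75.2 FPKM. Aqp9 and Aqp7 followed at 10.6 ± 4.31 and 9.35 ± 4.58 FPKM (SD, n = 3) and did not differ beyond their spread. Aqp4 was at 3.72 ± 0.498 FPKM (SD, n = 3), below Aqp7 and Aqp9 and above Aqp11 (0.742 ± 0.339 FPKM, SD, n = 3) in each control mouse. Aqp5 and Aqp8 had no settled place in this order, because control replicate 2 held most of both. Aqp4 was the steadiest of the 8 in controls, with an SD of 13.4% of its mean, and Aqp5 the most variable, with 148%.

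**Figure D1:**
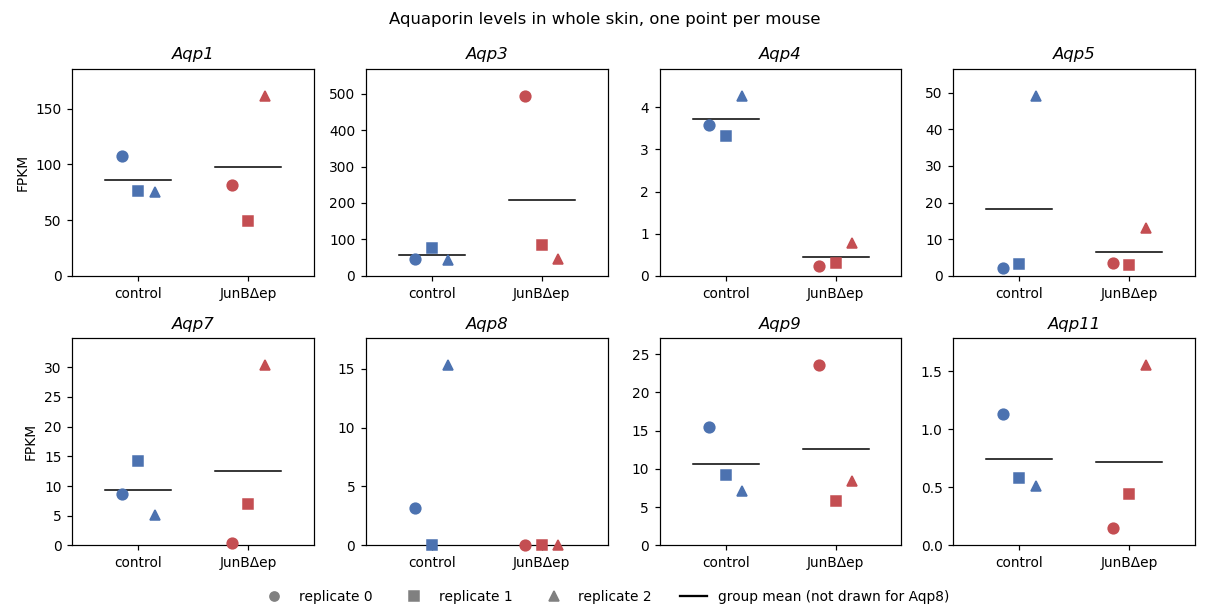
FPKM of 8 aquaporins in 3 control (blue) and 3 JunBΔep (red) mice, one panel per gene with its own linear axis from 0, symbols marking the replicate and lines the group mean. Aqp4 separates the groups, at 3.31 to 4.28 FPKM among controls and 0.238 to 0.780 FPKM among JunBΔep mice, while single mice carry the highest values of Aqp3, Aqp5, Aqp7 and Aqp8.

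The 8 transcripts summed to 183 to 202 FPKM per control mouse, and the JunBΔep sums were 604, 151 and 261 FPKM. Their make-up differed between mice of the same genotype. Aqp1 was the leading aquaporin in control replicates 0 and 2 and in JunBΔep replicate 2, at 57.3%, 37.3% and 61.9% of the sum. Aqp3 led in JunBΔep replicates 0 and 1, at 81.9% and 56.4%, and was level with Aqp1 in control replicate 1, at 41.7% against 41.5%. The aquaglyceroporins Aqp3, Aqp7 and Aqp9 together took 28.3% to 54.5% of the sum in controls and 85.9%, 64.9% and 32.1% in the JunBΔep mice, so the groups overlapped.

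**Figure D2:**
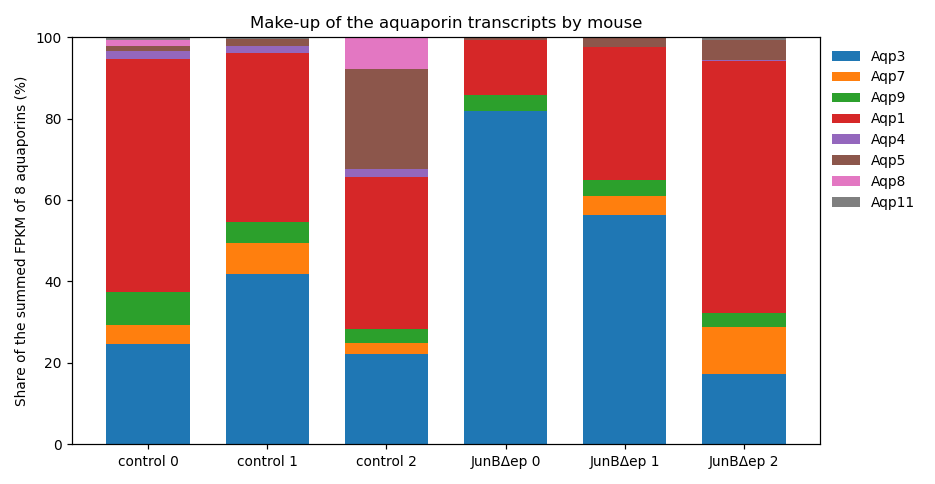
Share of each aquaporin in the summed FPKM of the 8 genes (y axis, percent), one bar per mouse, with the aquaglyceroporins Aqp3, Aqp7 and Aqp9 at the bottom of each bar. Aqp3 fills 81.9% of the bar of JunBΔep replicate 0, and Aqp5 fills 24.4% of that of control replicate 2.

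Between the genotypes, 1 of the 8 aquaporins changed. Aqp4 fell in JunBΔep skin, and none was called as higher. Genes were compared with limma on log2(FPKM + 0.5), a scale that understates the change of low genes, and called at an adjusted p below 0.05. Over the whole data set 1.38% of the 17021 tested genes were called, each of them lower in JunBΔep mice, so that the share called as lower is also 1.38%. At an unadjusted p below 0.05, Aqp4 was again the single aquaporin, where 7.56% of all tested genes passed. The values of the 3 control and 3 JunBΔep mice did not overlap for Aqp4 alone among the 8, against 14.8% of all tested genes, or 9.16% counting those that were lower. The median log2 fold change of the 8 was -0.30, beside 0.03 for all tested genes, and it was -0.05 without JunBΔep replicate 0, where none of the 8 was called with limma.

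**Figure D3:**
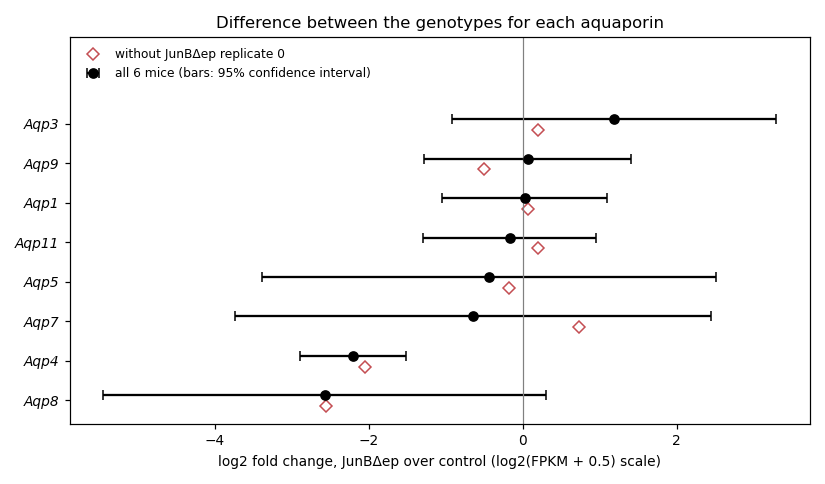
log2 fold change of JunBΔep over control (x axis) for each aquaporin, black points with 95% confidence intervals from limma for all 6 mice and open diamonds for the fit without JunBΔep replicate 0. The interval of Aqp4, -2.89 to -1.52, lies below 0 and those of the other 7 include it, with Aqp7 moving from -0.65 to 0.73 when JunBΔep replicate 0 is left out.

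Aqp4 (ENSMUSG00000024411.8, chromosome 18, 15547903 to 15562193 on mm9, minus strand, 6 exons) is the water channel of fast skeletal muscle fibres and of astrocytes. Its control values were 3.58, 3.31 and 4.28 FPKM, and its JunBΔep values 0.238, 0.301 and 0.780 FPKM. All 3 JunBΔep mice lay below all controls. The control mean was 8.47 times the JunBΔep mean of 0.440 ± 0.297 FPKM (SD, n = 3), and the log2 fold change was -2.21 (SE 0.28, adjusted p = 0.0269 from limma). Without JunBΔep replicate 0 it was -2.05 (adjusted p = 0.0571 from limma). The adjusted p was 0.124 without JunBΔep replicate 1, 0.144 without control replicate 0, 0.127 without control replicate 1 and 0.145 without control replicate 2, all from limma, with log2 fold changes of -2.28 to -2.11, and in these 4 fits no gene of the table was called. The sample names fall into a pair of number series, one with control replicates 0 and 1 and JunBΔep replicate 0 and the other with control replicate 2 and JunBΔep replicates 1 and 2. With a block for the series, the log2 fold change of Aqp4 was -2.33 (adjusted p = 0.0661 from limma), and no gene was called.

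Skeletal muscle transcripts moved with Aqp4. All 12 markers of skeletal muscle on a hand-written list had lower values in JunBΔep mice with no overlap between the groups, and 8 were called with limma, Acta1, Ckm, Myh1, Myh2, Mylpf, Tnnt3, Tnni2 and Ryr1, which encode actin, creatine kinase, myosin, troponin and the calcium release channel of the fibre. Their median log2 fold change was -3.07. Without JunBΔep replicate 0 their median was -2.83 and 2 were called. The summed level of the 12 ranged from 18235 to 25055 FPKM among controls and from 1753 to 4269 FPKM among JunBΔep mice, with the slow fibre myosin Myh7 listed at 0 in JunBΔep replicates 0 and 1. Per 1000 FPKM of these summed markers, a ratio chosen after the values were seen, Aqp4 gave 0.191, 0.132 and 0.235 FPKM for the control mice against 0.131, 0.172 and 0.183 FPKM for the JunBΔep mice. The groups overlapped on this ratio. On the log2(FPKM + 0.5) scale they did not. Aqp4 less the median shift of the markers was 0.09, -0.41 and 0.32 for the controls. For the JunBΔep mice it was 1.10, 1.08 and 0.50. The scale understates the fall of Aqp4, which was at 0.238 to 0.780 FPKM in these mice. With 0.1 added in place of 0.5, the log2 fold change of Aqp4 was -2.95, beside -2.21. Whether Aqp4 fell less than the markers can therefore not be decided on this scale. In whole skin, fewer cells of a type and less RNA per cell cannot be told apart, and the amount of muscle under each skin sample was not tested.

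Aqp4 is held at the membrane of muscle fibres by the dystrophin-associated proteins. Of 12 such genes, with a median log2 fold change of -0.72, 10 had a negative fold change in JunBΔep mice, where 7924 of all 17021 tested genes had one. Of the 12, 5 were lower with no overlap between the groups, against 9.16% of all tested genes. Among those called was Sgca, which encodes a sarcoglycan. Its values were 27.9, 37.6 and 27.7 FPKM for controls against 3.46, 2.89 and 5.19 FPKM for JunBΔep mice (log2 fold change -2.88, SE 0.26, adjusted p = 0.0179 from limma). It was also called without JunBΔep replicate 0 (adjusted p = 0.0410 from limma). Dag1, which encodes dystroglycan and is used by many cell types, ranged from 29.5 to 45.2 FPKM over the controls and from 32.0 to 36.5 FPKM over the JunBΔep mice. The 3 genes whose pattern over the 6 mice was most like that of Aqp4, by Pearson correlation of log2 values among 9787 genes averaging 5 FPKM or more, were Txlnb (r = 0.999), Atcayos (r = 0.998) and Klhl31 (r = 0.997). These correlations describe 6 libraries and were not tested.

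**Figure D4:**
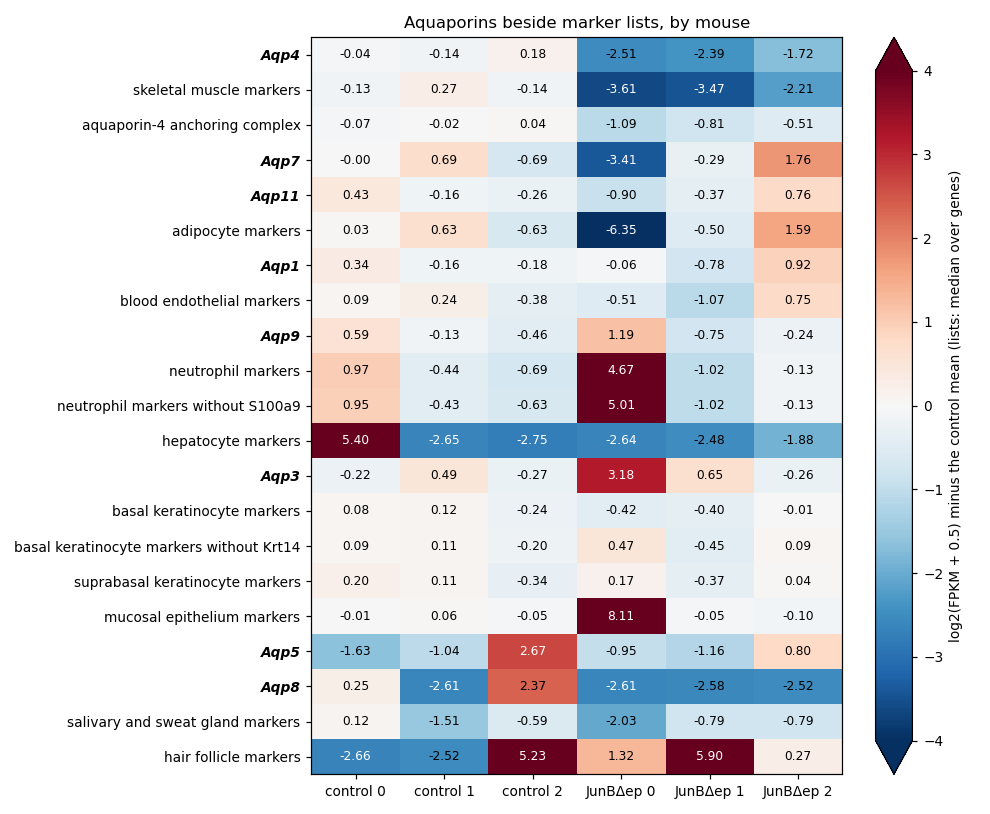
Difference from the control mean on the log2(FPKM + 0.5) scale for each aquaporin (bold italics) and, for marker lists, the median over their genes (also without Krt14 or S100a9, listed at 0 in JunBΔep replicate 0), with one column per mouse and the value in each cell. Aqp4 and the skeletal muscle markers are low in all 3 JunBΔep mice, Aqp7 and the adipocyte markers are lowest in JunBΔep replicate 0 and highest in replicate 2, and Aqp3 is highest in JunBΔep replicate 0.

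Aqp3 (ENSMUSG00000028435.8, chromosome 4, 41039755 to 41045216 on mm9, minus strand, 6 exons) is the glycerol and water channel of keratinocytes. The control mice had 46.5, 76.5 and 44.8 FPKM, and the JunBΔep mice 495, 85.3 and 45.1 FPKM. JunBΔep replicates 0 and 1 lay above every control, the first at 8.85 times the control mean, and replicate 2 lay within the controls. The means differed by 1.19 on the log2 scale (SE 0.87, 95% confidence interval -0.92 to 3.30, adjusted p = 0.722 from limma). Without JunBΔep replicate 0 it was 0.19 (SE 0.38, adjusted p = 0.888 from limma), so the difference of the means rests on that mouse. The paper also measured Aqp3 by qPCR, in a set of genes tied to atopic dermatitis. It reports that a large share of the set was higher in JunBΔep mice, and its text does not say which.

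Keratinocyte markers moved both ways in the same mouse. In JunBΔep replicate 0, Aqp3 was 3.18 above the control mean on the log2 scale, while the median of 8 suprabasal keratinocyte markers was 0.17. The median of 8 basal markers was -0.42 there with Krt14 counted at its listed 0 and 0.47 over the other 7, a choice made after seeing the data. In JunBΔep replicate 1, Aqp3 was at 0.65, the suprabasal list at -0.37 and the basal list at -0.40, or -0.45 without Krt14. Of these 16 markers, none was called with limma (median log2 fold change -0.05 for the suprabasal list and -0.30 for the basal list, or 0.06 without Krt14), and 1, the desmosomal cadherin Dsg1a, had an unadjusted p below 0.05 (log2 fold change -0.65, adjusted p = 0.257 from limma). With JunBΔep replicate 0 left out, the median was -0.15 for the suprabasal list and -0.19 for the basal list, or -0.23 without Krt14. The medians hide opposite values in JunBΔep replicate 0, where 4 of the 8 basal markers lay above every control (Krt5, Itga6, Itgb4 and Trp63) and 3 below (Krt15, Col17a1 and Dst), besides Krt14, whose listed 0 is not read as a level. Krt5 was at 3725 FPKM, with a control maximum of 2538 FPKM, and Krt15 at 80.7 FPKM, with a control minimum of 1117 FPKM. Among the suprabasal markers Krt1 was at 4466 FPKM, with a control maximum of 958 FPKM, and Lor, a protein of the cornified envelope, at 823 FPKM, with a control minimum of 1408 FPKM. The 6 mucosal epithelium markers had a median of 8.11 in JunBΔep replicate 0 and of -0.10 to 0.06 in the other mice, and none of the 6 was called (median log2 fold change 2.68, or -0.29 over the 3 that passed the filter without that mouse). Crnn, a member of this list, went another way, with 10.998 FPKM in JunBΔep replicate 0 but 73.9 FPKM in control replicate 2 and 80.4 FPKM in JunBΔep replicate 1. The part of these transcripts in the Aqp3 level was not tested. The genes most like Aqp3 over the 6 mice were Ier5l, Btbd11 and Isy1 (r = 0.997, 0.997 and 0.996), and 272 of 9786 genes had an r above 0.95.

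Aqp7 (ENSMUSG00000028427.7, chromosome 4, 40980107 to 40995172 on mm9, minus strand) lies 44582 bases from Aqp3, with no annotated protein-coding gene between them, and is the channel through which fat cells release glycerol. Control values of 8.62, 14.3 and 5.19 FPKM stood against JunBΔep values of 0.363, 7.00 and 30.4 FPKM. The JunBΔep mice thus held both the lowest and the highest value of the 6, which lay 83.6-fold apart, and neighbouring Aqp3 had its highest value in the mouse where Aqp7 had its lowest. The estimated log2 fold change was -0.65 (SE 1.27, 95% confidence interval -3.73 to 2.44, adjusted p = 0.867 from limma) and turned to 0.73 without JunBΔep replicate 0 (adjusted p = 0.808 from limma).

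The order of the mice for Aqp7 was close to that for fat cell transcripts. The 10 adipocyte markers summed to 2119 to 6136 FPKM per control mouse, the JunBΔep sums were 87.8, 3096 and 15421 FPKM, and none of the 10 was called with limma. Their median log2 fold change was -1.67, and 0.56 without JunBΔep replicate 0. Adipoq, which encodes the fat cell hormone adiponectin, spanned 175 to 455 FPKM over the controls, and the JunBΔep values were 1.61, 213 and 936 FPKM. Per 1000 FPKM of the summed adipocyte markers, again a ratio chosen after the values were seen, Aqp7 spanned 2.32 to 2.66 FPKM over the controls, with JunBΔep values of 4.14, 2.26 and 1.97 FPKM. Its level therefore varied less between mice relative to these markers than in absolute FPKM. The same ratio was taken for Aqp1, Aqp3 and Aqp9 with the blood endothelial, basal keratinocyte and neutrophil markers. It spanned 347 to 768, 8.47 to 120 and 0.940 to 350 FPKM in turn. Krt14 and S100a9 were counted there at their listed 0 in JunBΔep replicate 0. On the log2(FPKM + 0.5) scale, Aqp7 less the median shift of the adipocyte markers was -0.05 to 0.06 over the controls. The JunBΔep values of 2.94, 0.22 and 0.16 lay above them. The scale understates the fall of Aqp7 in JunBΔep replicate 0, where it was at 0.363 FPKM. The genes most like Aqp7 were Sult1a1, Ephx2 and Xpc (r = 0.999, 0.998 and 0.997 over 6 mice).

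Aqp9 (ENSMUSG00000032204.7, chromosome 9, 70958466 to 71016489 on mm9, minus strand), the third aquaglyceroporin, had control values of 15.4, 9.19 and 7.17 FPKM beside JunBΔep values of 23.6, 5.79 and 8.44 FPKM. JunBΔep replicate 0 was highest and replicate 1 lowest. On the log2 scale the difference was 0.06 (SE 0.55, 95% confidence interval -1.28 to 1.41, adjusted p = 0.973 from limma), which turned to -0.50 when JunBΔep replicate 0 was left out. Aqp9 is used by both leukocytes and hepatocytes, and the genes most like it over the 6 mice were the leukocyte genes Rac2 (r = 0.998), Mmp9 (r = 0.997) and Ncf4 (r = 0.992), which encode a small GTPase, a granule protease and an oxidase subunit. Mmp9 is also one of the 9 neutrophil markers measured. The median of these 9 was 4.67 above the control mean in JunBΔep replicate 0 and 0.97 in control replicate 0, the mice with the highest Aqp9, and -1.02 to -0.13 in the others. Aqp9 less this median was -3.48 in JunBΔep replicate 0 and -0.38 to 0.31 in the other mice. Per 1000 FPKM of the summed neutrophil markers, Aqp9 gave 10.3, 226 and 350 FPKM for the controls. The JunBΔep values were 0.940, 213 and 58.3 FPKM, so Aqp9 did not keep a steady ratio to these markers. None of the 9 was called with limma, and their median log2 fold change was 1.25 with and -0.57 without JunBΔep replicate 0. In that mouse S100a9 is listed at 0, again beside a high partner, S100a8, at 24456 FPKM, and without S100a9 the median of the list was 5.01 above the control mean there. The 10 hepatocyte markers, of which none was called (median log2 fold change -2.10), were at 2055 FPKM in sum in control replicate 0 and at 2.48 FPKM in sum in JunBΔep replicate 0, the mouse with the most Aqp9.

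Glycerol that fat cells export is freed from triglyceride by the lipases of Pnpla2, Lipe and Mgll, and cells that take it up phosphorylate it with glycerol kinase, the product of Gyk. Of 12 glycerol handling genes, 5 had a positive and 7 a negative log2 fold change in JunBΔep mice, with a median log2 fold change of -0.14, or 0.15 without JunBΔep replicate 0. None was called with limma, and Dgat1, which encodes an enzyme of triglyceride synthesis, was the single one with an unadjusted p below 0.05 (log2 fold change 1.09, adjusted p = 0.621 from limma). Pnpla2, Lipe and Gpd1 had their lowest and highest values in the same mice as Aqp7, with 18.7, 10.9 and 4.32 FPKM in JunBΔep replicate 0 and 430, 277 and 268 FPKM in replicate 2. Gyk, named after its values were seen, was at 60.5 FPKM in JunBΔep replicate 0 and at 1.38 to 2.34 FPKM in the other 5 mice. In JunBΔep replicate 0, Aqp3, Aqp9 and Gyk thus had their highest value, and Aqp7, Lipe, Pnpla2 and Gpd1 their lowest. For Gyk the log2 fold change was 1.48 (SE 1.31, adjusted p = 0.725 from limma), and -0.10 without that mouse.

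**Figure D5:**
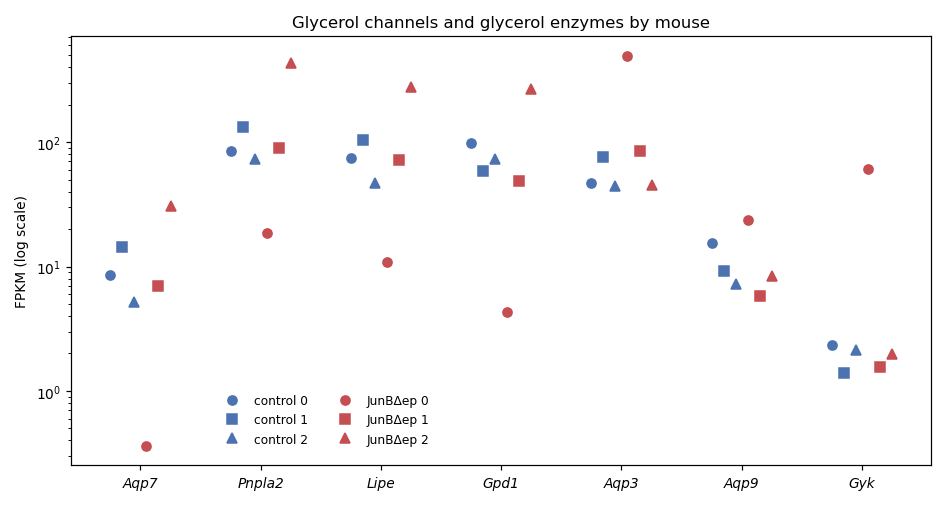
FPKM (log axis) of the aquaglyceroporins Aqp3, Aqp7 and Aqp9 and of 4 genes of glycerol release and use, one symbol per mouse, controls in blue and JunBΔep mice in red. JunBΔep replicate 0 (red circle) is the lowest point for Aqp7, Pnpla2, Lipe and Gpd1 and the highest for Aqp3, Aqp9 and Gyk, where Gyk is at 60.5 FPKM against at most 2.34 FPKM elsewhere.

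Aqp1 (ENSMUSG00000004655.5, chromosome 6, 55286426 to 55298549 on mm9, plus strand, 4 exons), the water channel of vessel walls, had 108, 76.1 and 75.2 FPKM among the controls, and 81.4, 49.4 and 162 FPKM among the JunBΔep mice. The lowest and the highest value were both in JunBΔep mice. The genotypes differed by 0.03 on the log2 scale (SE 0.44, 95% confidence interval -1.05 to 1.10, adjusted p = 0.985 from limma) and 0.07 without JunBΔep replicate 0. The 10 blood endothelial markers, none of them called and with a median log2 fold change of -0.22, had their lowest median in JunBΔep replicate 1 (-1.07) and their highest in replicate 2 (0.75), as did Aqp1 (-0.78 and 0.92, all relative to the control mean on the log2 scale). The 6 erythroid markers measured, none of them called (median log2 fold change -1.79), summed to 1788 FPKM in control replicate 0 and to between 43.3 and 482 FPKM elsewhere. They were lowest in JunBΔep replicate 1 and at 88.1 FPKM in replicate 2, the mouse with the most Aqp1. The genes most like Aqp1 were Snx10, Jak3 and Agpat9 (r = 0.983, 0.980 and 0.975 over 6 mice).

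Aqp5 and Aqp8, channels known from secretory epithelia, were each dominated by 1 control mouse. Aqp5 (ENSMUSG00000044217.9, chromosome 15, 99421280 to 99425260 on mm9, plus strand) showed 2.03, 3.29 and 49.2 FPKM for the controls, and 3.55, 3.00 and 13.1 FPKM for the JunBΔep mice. Aqp8 (ENSMUSG00000030762.5, chromosome 7, 130605808 to 130611517 on mm9, plus strand) was at 3.13 FPKM in control replicate 0, listed at 0 in replicate 1 and at 15.3 FPKM in replicate 2. In JunBΔep mice it was listed at 0 in replicate 0 and was at 0.0136 and 0.0322 FPKM in replicates 1 and 2. Control replicate 2 was thus highest for both genes, and for Aqp5 JunBΔep replicate 2 came next. For Aqp5 the log2 fold change was -0.44 (SE 1.21, 95% confidence interval -3.39 to 2.51, adjusted p = 0.908 from limma), and for Aqp8 it was -2.57 (SE 1.18, 95% confidence interval -5.45 to 0.31, adjusted p = 0.705 from limma). Without control replicate 2 the value of Aqp5 turned to 0.90 and that of Aqp8 was -1.39, and without JunBΔep replicate 0 they were -0.18 and -2.55.

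Gland transcripts did not share 1 order of the mice. Bhlha15, a transcription factor of secretory cells, was at 69.8 FPKM in control replicate 2 and at most 0.343 FPKM in the other mice, and the saliva genes Smr3a and Bpifa2 were at 20.7 and 37.9 FPKM in control replicate 0 and at most 0.66 FPKM elsewhere. Elf5, a further regulator of gland cells, was at 15.3 FPKM in control replicate 2 but JunBΔep replicates 1 and 2 also had 13.8 and 8.71 FPKM of it, and the amylase gene Amy1 was highest in JunBΔep replicate 2, at 125 FPKM. Of the 10 salivary and sweat gland markers, 7 were tested and none was called with limma (median log2 fold change -1.24), and 2 to 6 of the 10 are listed at 0 in each mouse. The 10 summed to 60.8 to 116 FPKM per control mouse, with JunBΔep sums of 4.95, 44.8 and 134 FPKM, and Amy1 alone gave 60.4 of the 60.8 FPKM of control replicate 1 and 125 of the 134 FPKM of JunBΔep replicate 2. The genes most like Aqp8 were Slc27a2, Pigr and Oxr1 (r = 0.991, 0.985 and 0.971 over 6 mice). Pigr, the receptor that carries antibodies across secretory epithelia, was at 79.3 FPKM in control replicate 2, 10.1 FPKM in control replicate 0 and at most 1.07 FPKM in the other mice. Those most like Aqp5 were Stk39, Alg2 and Pomgnt1 (r = 0.979, 0.973 and 0.962), and Stk39, a kinase of cell volume control, had 12.1 FPKM in control replicate 2 and between 5.18 and 7.76 FPKM elsewhere. The part of gland tissue in these values was not tested.

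Aqp11 (ENSMUSG00000042797.7, chromosome 7, 104874889 to 104886757 on mm9, minus strand, 3 exons) had the lowest control mean of the 8. Its control values were 1.13, 0.583 and 0.512 FPKM and its JunBΔep values 0.152, 0.442 and 1.55 FPKM. As for Aqp7, JunBΔep replicate 0 was lowest and replicate 2 highest. This gave a log2 fold change of -0.17 (SE 0.46, 95% confidence interval -1.29 to 0.95, adjusted p = 0.907 from limma) which turned to 0.20 without JunBΔep replicate 0.

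The other 4 aquaporin genes of the table, Mip, Aqp2, Aqp6 and Aqp12, were barely present. They summed to 0.129 to 0.306 FPKM per control mouse, and the JunBΔep sums were 1.01, 0.151 and 0.309 FPKM. Of these 4 only Aqp2, the vasopressin-regulated channel of the kidney, passed the filter. It was at 0.931 FPKM in JunBΔep replicate 0 and at most 0.272 FPKM in the other mice. Its log2 fold change was 0.40 (adjusted p = 0.732 from limma), and 0.01 without JunBΔep replicate 0. Aqp2 lies 6303 bases from Aqp5 on chromosome 15, with no annotated gene between them, and the pair had their highest values in different mice. Of 12 genes of osmotic and cell volume control, none was called or had an unadjusted p below 0.05 with limma, and their median log2 fold change was 0.06. The groups did not overlap for 2 of the 12, Lrrc8a and the heat shock protein gene Hspa4l, both higher in JunBΔep mice. Of all 17021 tested genes, 14.8% did not overlap, and 956 of them were higher. Lrrc8a, the core subunit of the volume-regulated anion channel, spanned 7.69 to 8.52 FPKM over the controls. The JunBΔep values were 15.4, 8.85 and 10.9 FPKM. Its log2 fold change was 0.47 (SE 0.24, adjusted p = 0.720 from limma), and 0.26 without JunBΔep replicate 0. That of Hspa4l was 0.51, and 0.12 without that mouse.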

How the data were processed

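Whole skin of 3 JunBΔep and 3 control mice was profiled from poly(A) RNA with strand-marking libraries. The authors checked reads with FastQC, aligned them to NCBI37/mm9 with TopHat 2.0.10, Bowtie 1.0.0 and SAMtools 0.1.19 in the nextpresso pipeline with the iGenomes annotation, and deposited FPKM values per gene and mouse. Cufflinks is named in the submitters' processing notes without a role, and the sources used here give no further scaling between libraries. Read counts were the basis of the authors' own test and were not analysed here, so FPKM values were compared on the log2(FPKM + 0.5) scale with limma 3.58.1 (R 4.3.3), letting the variance follow the mean level, for the 17021 genes that averaged 0.1 FPKM or more. P-values are two-sided and were adjusted by Benjamini and Hochberg's method across all of these genes, with a threshold of 0.05, and they measure the spread between mice. The procedure was tested on simulated data. Tables and figures used Python 3.11.15, pandas 2.3.3 and matplotlib 3.10.9. GENCODE vM1 (mm9) gave the gene positions and RefSeq the start windows.

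The members and the gene lists were chosen with earlier results of these data known. The genes named are the 8 aquaporins, Junb, genes of the hand-written lists that were called or that lead or define their list, and, for each aquaporin with a mean of at least 1 FPKM, the 3 genes most correlated with it. Gyk, Pnpla2, Lipe, Gpd1, Dgat1, Dag1, Lrrc8a, Hspa4l, Itga6, Itgb4, Trp63, Krt15, Col17a1, Dst, Crnn, Krt1, Lor, Dsg1a, Elf5, Amy1, Stk39, Smr3a, Bpifa2 and Pigr were described after their values were seen. Results for some genes of the lists are not reported here. Alternatives were other pseudocounts, filters, scalings and variance models, blocks for the replicate number and for the series of numbers used in sample names, and each mouse left out in turn.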

Additional observations from a re-analysis of the deposited data

How the results depend on the processing

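Aqp4 had a negative log2 fold change under all 17 alternatives, between -2.95 and -1.73, and was called in 10 of them. The number of aquaporins called, 1, was unchanged by pseudocounts of 0.1 and 1, by omitting the filter or raising it to 1 FPKM (which removes Aqp11), by 3 other scalings, limma without the trend and robust limma. It was 0 with a replicate block and 0 with a block for the series of numbers used in sample names, where the number of genes called in the whole table fell from 235 to 0 as well. The same replicate number marks no shared litter or day in the labels, and the deviations of same-numbered mice from their group means correlated at 0.12, -0.23 and -0.43, so the numbers were not taken as pairs. The labels do not say what the number series marks, and it holds both genotypes in unequal numbers, so its block is given as an alternative. With each mouse left out in turn, the aquaporins called ranged from 0 to 1, those without overlap between the groups from 1 to 3, and the genes called from 0 to 254. Aqp8, lower in JunBΔep mice, did not overlap without control replicate 1. Aqp3, higher in JunBΔep mice, and Aqp11, lower in them, did not without JunBΔep replicate 2. Groups separate more easily with fewer mice, and the share over all tested genes is not given for these fits. No conclusion is drawn from these counts of aquaporins without overlap. The log2 fold change ranged from -0.42 to 0.43 for Aqp1, -1.25 to 0.90 for Aqp5, -1.85 to 0.73 for Aqp7, -0.50 to 0.47 for Aqp9 and -0.63 to 0.20 for Aqp11 in these fits. Aqp3 and Aqp8 kept their sign in all 17 alternatives and were called in none, with ranges of 0.19 (without JunBΔep replicate 0) to 1.91 (without JunBΔep replicate 2) and of -3.88 (without control replicate 1) to -1.39 (without control replicate 2) when each mouse was left out. The cause of these changes was not tested. With 3 mice per group and unknown read numbers, the values near 0 of Aqp8 in JunBΔep mice and of Aqp2, Aqp6, Aqp12 and Mip carry no detection limit.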

Other observations

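Marker transcripts of other cells of the skin also varied between mice of the same genotype. The 10 hair follicle markers, keratins and regulators of the growing hair, summed to 3763 FPKM in control replicate 2 and 6363 FPKM in JunBΔep replicate 1, and to 7.99 to 319 FPKM in the other 4 mice. The 9 macrophage markers summed to 269 to 451 FPKM per control mouse, and the JunBΔep sums were 450, 123 and 293 FPKM. None of the genes in these lists was called with limma, and their median log2 fold changes were 1.99 and -0.38, or 2.97 and -0.76 without JunBΔep replicate 0. The mouse with the fewest macrophage transcripts, JunBΔep replicate 1, also had the lowest Aqp9 (5.79 FPKM) and Aqp1 (49.4 FPKM) of the 6 mice, and the relation was not tested.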
